A study of Mus musculus with 21 samples.

Results

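Transcript levels of 8 genes of the Bcl2 family were followed through 3 blood progenitor populations of mouse bone marrow, comparing wild-type mice with mice homozygous for an Etv6 mutation. The genes were taken as the rows of the deposited expression table whose symbol is on a list of 10 family members. Of those, Bcl2, Bcl2l1, Mcl1, Bax, Bcl2l11, Bid, Bad and Bbc3 are among the 11628 genes of the table, and Bak1 and Pmaip1 were not analysed here. The rule uses no expression value.

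The family controls the mitochondrial route to apoptosis. Bax and its relative Bak1 are effectors that permeabilise the outer mitochondrial membrane, which lets cytochrome c reach the cytosol and caspases become active. The pro-survival proteins Bcl2, Bcl2l1 (Bcl-xL) and Mcl1 hold the effectors in check, and the BH3-only proteins Bcl2l11 (Bim), Bid, Bad, Bbc3 (Puma) and Pmaip1 (Noxa) oppose them, some by also engaging the effectors directly. In blood formation Mcl1 is known as a survival factor of stem and progenitor cells, Bcl2 as a survival factor of lymphocytes and their precursors, and Bcl2l1 as one of erythroid cells and platelets. Much of the regulation acts on the proteins (cleavage of Bid, phosphorylation of Bad, rapid turnover of Mcl1), and a transcript level does not report it.

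RNA was measured in 21 libraries, with 3 wild-type and 4 mutant libraries in each population. The mutants carry 2 copies of a germline Etv6 allele that the series description writes as h.P214L and the labels call ETV6 mt/mt. The labels name no treatment and no other allele, and the title states that lymphoid development and inflammation were in question. Haematopoietic stem cells (HSC) were gated as Lin-negative, cKit+, Sca1+, FLK2-negative, CD150+ and CD38-negative, multipotent progenitors of type 4 (MPP4) as Lin-negative, cKit+, Sca1+ and FLK2+, and common lymphoid progenitors (CLP) as Lin-negative, IL7+, Flk2+, cKit-low and Sca1-low. In each population the wild-type libraries come from 2 females and 1 male, 2 aged 12 weeks and 1 aged 10 weeks. The 4 mutant libraries come from 3 females and 1 male, of which 3 are labelled 12 weeks and 1 is labelled 10 weeks in HSC and MPP4, and 2 carry each age in CLP. Libraries are named below by genotype, population and the replicate number of the label.

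Values are RPKM, reads scaled to transcript length and to the mapped reads of the library, so that levels of different genes can be set side by side per length. Differences are on the log2(RPKM + 1) scale, which understates the change of the low genes Bbc3 and Bcl2l11, and a gene is said to have risen or fallen where the adjusted p of limma's moderated test, computed over 11496 genes, was under 0.05. RPKM summed to 337818 to 376135 per library and libraries of 1 group correlated at 0.969 to 0.990. The Etv6 transcript lay at 105 ± 7.48 RPKM (SD, n = 4) in mutant and 113 ± 6.91 RPKM (n = 3) in wild-type HSC (exact permutation p = 0.400, two-sided, adjusted 0.457 over 3 populations, smallest possible 0.0286). In MPP4 and CLP it gave exact p-values of 0.286 and 0.457, and a level of a point mutant is no check of the genotype labels. The summed level of 8 HSC markers was 512 to 608 RPKM in HSC and 2.91 to 8.85 RPKM in CLP, and that of 7 of 8 lymphoid-primed markers was 18.0 to 31.1 RPKM in HSC and 2402 to 3415 RPKM in CLP. Of the markers of cells the gates should remove, the neutrophil granule list summed to over 1000 RPKM in 4 libraries (wild-type HSC 2, mutant MPP4 2, mutant CLP 2 and 4). The sum held 7 granule genes and Vamp5 (at most 45.7 RPKM), which had been matched to the listed name Camp. Mpo, one of the granule genes, stood at 396 to 544 RPKM in the wild-type MPP4 libraries. Whether such transcripts came from the sorted cells themselves was not tested. The 6 measured erythroid markers of 7 listed ranged from 25.0 RPKM in mutant CLP 1 to 2835 RPKM in mutant CLP 4.

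From HSC through MPP4 to CLP the wild-type profile of the family turned over in 5 of its 8 measured genes. Bcl2, Bid and Bcl2l11 were higher in CLP than in HSC, Bcl2 with a mean of 33.2 against 16.6 RPKM and Bid and Bcl2l11 at 2.30 and 3.04 times the mean RPKM. Bcl2l1 and Bbc3 were lower (2.14-fold and 3.73-fold), and Mcl1, Bax and Bad did not pass the test. In wild-type CLP against HSC 51.1% of all genes tested passed (19.4% higher, 31.7% lower), so 5 of 8 is near the background. The same 5 genes passed in the mutants, where 57.8% of all genes did (21.8% higher, 36.0% lower). Between genotypes 0 of the 8 genes passed in any of the 3 populations. In these bulk samples a change in the share of cells that carry a transcript and a change in its amount per cell cannot be told apart.

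**Figure D1:**
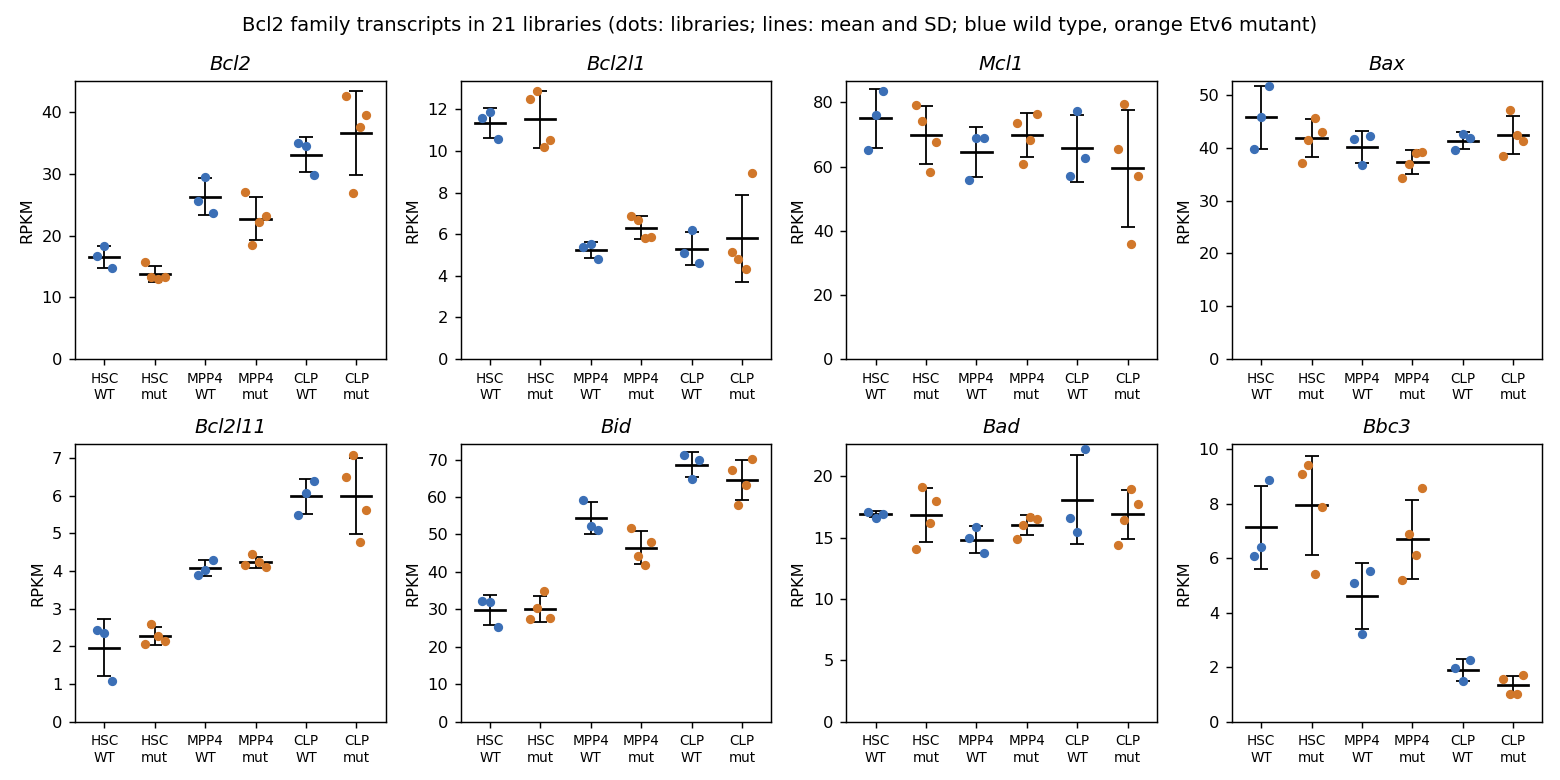
RPKM of the 8 Bcl2 family genes on linear axes, with 1 panel per gene, 1 dot per library and the mean with its SD for each of the 6 groups. Bcl2, Bid and Bcl2l11 step up from HSC to CLP, Bcl2l1 drops between HSC and MPP4, Bbc3 is lowest in CLP, and Mcl1, Bax and Bad overlap across populations except for Bad between wild-type HSC and MPP4.

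The promoters of the 3 genes that rose together, and that of Mcl1 as a gene that did not move with them, are shown because Etv6 belongs to the ETS family, whose DNA-binding motif has CCGGAA as its core. RefSeq (GRCm38.p6) gave 14 start sites for the 8 genes. In the 250 bases upstream of each start both strands were searched for CCGGAA, which on the printed strand also reads TTCCGG, for the longer CCGGAAGT that contains it, and for TTCNNNGAA, the palindrome bound by STAT factors. CCGGAA was present in 4 of the 14 windows, each of a different gene. It was present in 12.0% of all 32851 annotated windows and 22.4% of the 11837 windows of genes that were tested here. Windows of Bbc3 overlap in part, so the 14 are not all separate. CCGGAAGT, held by 2.88% of all windows and 6.04% of those of tested genes, and TTCNNNGAA, held by 7.02% and 5.91%, were in 0 windows of the family. The windows, printed 5′ to 3′ on the strand of the gene with CCGGAA or TTCCGG in capitals, are those of Bcl2 (chr1:106714291-106714540, minus strand), Bcl2l11 (chr2:128125788-128126037, plus strand), Bid (chr6:120916825-120917074, minus strand) and Mcl1 (chr3:95658471-95658720, plus strand).
Bcl2: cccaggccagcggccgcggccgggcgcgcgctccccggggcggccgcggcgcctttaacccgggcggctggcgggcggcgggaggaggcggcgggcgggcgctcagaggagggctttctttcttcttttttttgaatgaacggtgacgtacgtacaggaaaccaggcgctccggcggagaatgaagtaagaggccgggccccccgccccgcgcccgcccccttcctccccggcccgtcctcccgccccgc
Bcl2l11: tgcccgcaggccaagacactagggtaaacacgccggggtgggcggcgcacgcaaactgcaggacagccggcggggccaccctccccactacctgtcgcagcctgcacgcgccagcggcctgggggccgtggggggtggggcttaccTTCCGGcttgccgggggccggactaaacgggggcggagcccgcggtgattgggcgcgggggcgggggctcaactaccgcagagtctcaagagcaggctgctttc
Bid: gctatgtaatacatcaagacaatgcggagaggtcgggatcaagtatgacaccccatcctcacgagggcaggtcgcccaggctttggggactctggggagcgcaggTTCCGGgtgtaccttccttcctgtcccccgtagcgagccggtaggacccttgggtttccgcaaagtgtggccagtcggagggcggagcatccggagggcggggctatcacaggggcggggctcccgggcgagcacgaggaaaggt
Mcl1: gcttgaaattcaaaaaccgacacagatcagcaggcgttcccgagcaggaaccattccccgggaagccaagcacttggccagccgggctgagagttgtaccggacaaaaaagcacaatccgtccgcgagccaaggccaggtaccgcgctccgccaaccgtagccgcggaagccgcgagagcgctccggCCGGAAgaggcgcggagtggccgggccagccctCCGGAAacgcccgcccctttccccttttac
The matches begin 104 bases before the start in Bcl2l11, 145 in Bid, and 63 and 30 in Mcl1, and the Bcl2 window holds none. The fourth window with a match is that of a second start of Bad, where the match begins 175 bases upstream. That window lies inside the gene, with 197 of its 250 bases in exons of the GENCODE annotation. The Mcl1 window and most of the Bid window also lie within the gene spans given below. The remaining windows, those of Bax, Bbc3 and Bcl2l1 and the other starts of Bcl2l11 and Bad, hold no match either. Whether the matches relate to the levels was not tested. A match of these letters describes the sequence and says nothing of whether a factor binds there.

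Among the pro-survival genes, Bcl2 (chr1:106538176-106714290) rose along the series. In wild-type HSC it stood at 16.7, 18.3 and 14.8 RPKM, in wild-type MPP4 at 25.7, 29.5 and 23.6 RPKM, and in wild-type CLP at 35.0, 34.6 and 29.8 RPKM. The 3 populations did not overlap, though the highest MPP4 and the lowest CLP library were close. Bcl2 was higher in MPP4 than in HSC by 0.63 ± 0.15 (SE) on the log2 scale (adjusted p = 0.00189, limma) and in CLP than in HSC by 0.96 (adjusted p = 1.73e-05, limma). The step from MPP4 to CLP, 0.33, did not pass (adjusted p = 0.175, limma). Mutant libraries gave 15.8, 13.3, 12.9 and 13.3 RPKM in HSC, 27.1, 18.6, 22.2 and 23.2 RPKM in MPP4, and 42.6, 27.0, 37.7 and 39.6 RPKM in CLP. In the mutants both steps passed, with 0.67 from HSC to MPP4 (adjusted p = 2.84e-04, limma) and 0.66 from MPP4 to CLP (adjusted p = 5.98e-04, limma), although mutant CLP 2 lay just below the highest mutant MPP4 library. In the order of group means, mutant and wild type of each population were neighbours whose ranges overlapped.

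Bcl2l1 (chr2:152758732-152833803) went the other way, in 1 step between HSC and MPP4. Wild-type HSC libraries had 11.6, 11.9 and 10.6 RPKM, wild-type MPP4 libraries 5.39, 5.51 and 4.83 RPKM, and wild-type CLP libraries 5.09, 6.20 and 4.64 RPKM. HSC stood apart from both later populations, which overlapped each other. Bcl2l1 fell by 0.98 on the log2 scale from HSC to MPP4 (SE 0.17, adjusted p = 1.17e-04, limma), and MPP4 and CLP differed by 0.01 (adjusted p = 0.984, limma; 95% interval -0.35 to 0.37). In mutants the gene stood at 12.5, 12.9, 10.2 and 10.5 RPKM in HSC and 6.87, 6.70, 5.80 and 5.88 RPKM in MPP4, a fall of 0.77 on the log2 scale (adjusted p = 3.02e-04, limma). Mutant CLP held 5.15, 4.80, 4.34 and 8.92 RPKM. In the order of means both HSC groups came first, and the 4 MPP4 and CLP groups below them overlapped their neighbours. The high value belongs to mutant CLP 4, the library with the highest erythroid sum of all, 2835 RPKM, and the highest neutrophil granule sum of its group, 1646 RPKM. Without that library Bcl2l1 was lower in mutant CLP than in mutant MPP4 (log2 difference -0.34, adjusted p = 0.0303, limma), against -0.15 (adjusted p = 0.516) with it. The next highest erythroid sums were those of mutant MPP4 2 (2635 RPKM) and wild-type HSC 2 (2430 RPKM). Bcl2l1 stood there at 6.70 RPKM, below mutant MPP4 1, and at 11.9 RPKM, the highest of its group. What part the erythroid transcripts have in the value of mutant CLP 4 was not tested. The gene span overlaps that of Cox4i2, and gene-level values do not separate the long and short splice forms.

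Mcl1 (chr3:95656944-95663179), the short-lived pro-survival protein, was the most abundant transcript of the family per length in all 7 HSC and all 4 mutant MPP4 libraries. Its levels were 65.3, 76.2 and 83.6 RPKM in wild-type HSC, 55.7, 68.9 and 69.0 RPKM in wild-type MPP4 and 57.2, 77.4 and 62.6 RPKM in wild-type CLP. Every group overlapped its neighbours, and the wild-type differences of -0.21, 0.02 and -0.19 (MPP4 against HSC, CLP against MPP4, CLP against HSC) gave adjusted p-values of 0.423, 0.968 and 0.441 in limma. Mutant libraries ranged from 58.3 to 79.2 RPKM in HSC and from 60.9 to 76.5 RPKM in MPP4. In mutant CLP the spread was wide, with 65.5, 79.6, 35.8 and 57.0 RPKM, the highest in library 2 and the lowest in library 3. The mutant CLP against HSC difference was -0.28 (adjusted p = 0.177, limma), and it reached -0.43 (adjusted p = 0.0325) without mutant CLP 2 and -0.51 (adjusted p = 0.0381) without the 4 libraries rich in neutrophil granule transcripts, to which mutant CLP 2 belongs.

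Bax (chr7:45461695-45466903), the effector, had the smallest spread within groups of the 8 genes, an SD of 0.118 on the log2 scale beside 0.177 for the median gene. Its group means lay between 37.4 ± 2.27 (SD, n = 4) RPKM in mutant MPP4 and 45.8 ± 5.99 (n = 3) RPKM in wild-type HSC, single libraries between 34.4 and 51.8 RPKM, and neighbouring groups overlapped throughout. No population comparison passed for Bax, with adjusted p-values from 0.154 to 0.868 in limma over both genotypes.

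Bid (chr6:120893119-120917062), the BH3-only protein that caspase-8 cleaves in the death receptor route, had the largest share of variance between populations among the 8 genes (92.3%). Wild-type libraries had 32.3, 31.9 and 25.3 RPKM in HSC, 59.3, 52.4 and 51.3 RPKM in MPP4 and 71.2, 64.9 and 69.8 RPKM in CLP, without overlap. Bid rose by 0.85 ± 0.11 (SE) on the log2 scale from HSC to MPP4 (adjusted p = 3.53e-06, limma) and by 1.18 from HSC to CLP (adjusted p = 1.90e-08, limma). The step from MPP4 to CLP, 0.33, fell just short (adjusted p = 0.0501, limma). It passed in 8 of 19 alternative settings, among them the fits with the replicate number as a block. Adjusted p-values ran from 0.0237 to 0.231 (limma) over these settings. Mutant libraries had 27.5, 30.5, 34.9 and 27.6 RPKM in HSC, 51.9, 44.3, 41.8 and 47.9 RPKM in MPP4 and 67.3, 57.9, 63.1 and 70.2 RPKM in CLP, again without overlap. In the order of all 6 groups, mutant CLP and wild-type MPP4 overlapped as neighbours, and only mutant MPP4 and mutant HSC were separate. Both mutant steps passed, 0.61 (adjusted p = 3.23e-05, limma) and 0.47 (adjusted p = 8.94e-04, limma).

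Bcl2l11 (chr2:128126038-128162547), the BH3-only protein that is central to the deletion of lymphocytes, was among the lowest of the family and rose in the same order. It was at 2.44, 2.36 and 1.09 RPKM in wild-type HSC, 3.88, 4.02 and 4.30 RPKM in wild-type MPP4 and 5.47, 6.06 and 6.39 RPKM in wild-type CLP. The mutants had 2.07, 2.59, 2.29 and 2.14 RPKM in HSC, 4.16, 4.44, 4.23 and 4.10 RPKM in MPP4 and 6.51, 7.08, 4.77 and 5.63 RPKM in CLP. In both genotypes the 3 populations did not overlap. From HSC to MPP4 the gene rose by 0.81 ± 0.16 (SE, adjusted p = 4.09e-04, limma) in wild type and 0.68 (adjusted p = 5.31e-04, limma) in mutants, both on the log2 scale. From MPP4 to CLP the differences were 0.46 (adjusted p = 0.0645) and 0.41 (adjusted p = 0.0360, limma). The mutant call at that step was lost in 11 of 21 alternative settings, among them the removal of any 1 mutant MPP4 library, of mutant CLP 1 or of mutant CLP 2, with adjusted p-values up to 0.213. The gene overlaps Acoxl, and the values do not tell its splice forms apart.

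Bbc3 (chr7:16308398-16318334), the p53 target Puma, fell to its lowest level in CLP. Wild-type values were 6.10, 6.43 and 8.87 RPKM in HSC, 5.10, 3.24 and 5.53 RPKM in MPP4 and 1.98, 1.48 and 2.27 RPKM in CLP, and the 3 populations did not overlap. Mutant values were 9.09, 9.42, 5.41 and 7.87 RPKM in HSC, 5.19, 6.88, 6.12 and 8.59 RPKM in MPP4 and 1.58, 1.03, 1.02 and 1.71 RPKM in CLP. Here HSC and MPP4 overlapped and CLP stood apart, and over all 6 groups the only separate neighbours were wild-type MPP4 and wild-type CLP. Bbc3 fell by 0.93 ± 0.21 (SE) on the log2 scale from MPP4 to CLP in wild type (adjusted p = 0.00455, limma) and by 1.71 in mutants (adjusted p = 5.97e-07, limma), a 2.42-fold and a 5.01-fold lower mean RPKM. The wild-type step from HSC to MPP4, -0.54, passed only narrowly (adjusted p = 0.0480, limma). That call was lost in 13 of 19 alternative settings, among them the removal of wild-type HSC 2 or 3 or of wild-type MPP4 1 or 2, with adjusted p-values up to 0.254, and the mutant difference was -0.21 (adjusted p = 0.396).

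Bad (chr19:6941861-6951905), a BH3-only protein held inactive by survival-factor kinases, did not pass in any comparison of populations. Its group means ran from 14.8 ± 1.08 (SD, n = 3) RPKM in wild-type MPP4 to 18.1 ± 3.62 (n = 3) RPKM in wild-type CLP, and all neighbouring groups overlapped. The top of that order rests on wild-type CLP 3 at 22.2 RPKM, against 16.6 and 15.5 RPKM in the other libraries of the group. Wild-type HSC (16.6 to 17.1 RPKM) and MPP4 (13.7 to 15.9 RPKM) did not overlap, but the difference of -0.18 gave an adjusted p of 0.278 in limma. The gene span overlaps that of Gpr137.

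By step, 5 of 8 genes passed in wild-type MPP4 against HSC (3 higher, 2 lower), where 39.3% of all genes tested did (16.1% higher, 23.3% lower). In wild-type CLP against MPP4 only Bbc3 passed, 1 of 8 beside 13.1% of all genes (4.77% higher, 8.38% lower). This count was 2 or 3 in 9 of 19 alternative settings, where Bid or Bcl2l11 or both were called higher as well; 1 of the 9 is the removal of wild-type MPP4 1, and 2 are fits with the replicate number as a block. In the mutants 4 of 8 passed in MPP4 against HSC, 3 higher and 1 lower, beside 39.1% of all genes (16.0% higher, 23.1% lower). Likewise 4 of 8 passed in mutant CLP against MPP4, 3 higher and 1 lower, beside 24.3% of all genes (7.86% higher, 16.4% lower). The median log2 difference of the 8 genes was -0.18 from wild-type HSC to MPP4 and 0.15 from MPP4 to CLP, beside -0.06 and -0.05 for all genes. Groups that did not overlap were seen for 6, 4 and 5 of the 8 genes in the 3 wild-type comparisons (MPP4 with HSC, CLP with MPP4, CLP with HSC), beside 51.0%, 30.0% and 54.9% of all genes. In the mutants they were seen for 4, 3 and 5 of the 8, beside 37.6%, 25.5% and 51.6%. The comparisons share libraries, so their counts are not independent of each other. Median-ratio scaling between libraries moved the members' differences in CLP against HSC by a median of 0.10 in wild type and 0.11 in mutants (log2) and changed no call there.

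**Figure D2:**
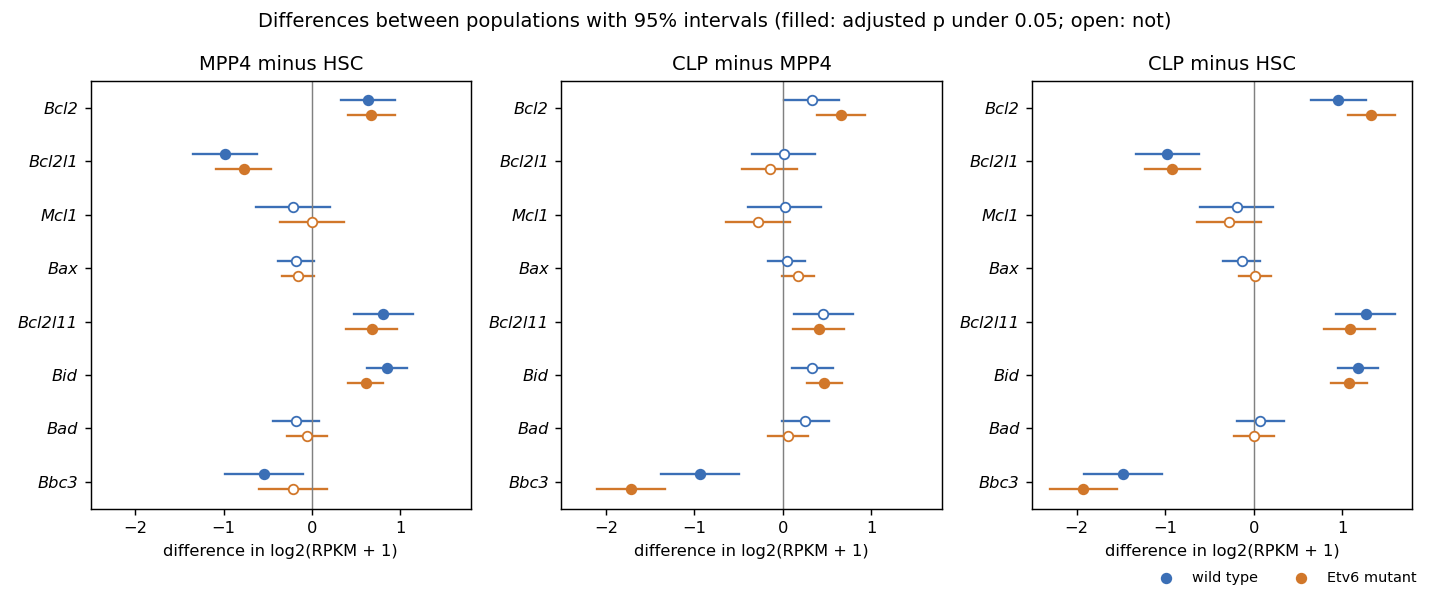
Differences between populations in log2(RPKM + 1) for each gene, with 95% intervals, wild type in blue and mutant in orange, filled where the adjusted p was under 0.05. Bcl2, Bcl2l11 and Bid lie right of 0 and Bcl2l1 and Bbc3 left of 0 in CLP minus HSC, in both genotypes.

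Between genotypes no member passed. In HSC the 8 adjusted p-values were all 1.00 (limma), 0 of 8 had an unadjusted p under 0.05, and 0.0522% of all genes passed (512 of 11496 had an unadjusted p under 0.05). Bcl2 had the largest difference there, -0.25 ± 0.14 (SE, 95% interval -0.53 to 0.04), which is 16.6% less mean RPKM in mutants. In CLP 0% of all genes passed, 507 genes and 0 members had an unadjusted p under 0.05, and the largest member difference was that of Bbc3, -0.32 ± 0.20 (95% interval -0.73 to 0.09). The intervals for Bid, Bax and Bad in CLP reached no further than -0.33 to 0.22 on the log2 scale. A p above the threshold does not show that the genotypes have equal levels.

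MPP4 gave the most separated values. Bbc3 was at 5.19 to 8.59 RPKM in the mutant and 3.24 to 5.53 RPKM in the wild-type libraries, ranges that overlapped, with a log2 difference of 0.46 ± 0.20 (unadjusted p = 0.0312, adjusted p = 0.540, limma). Bid differed by -0.22 ± 0.10 (unadjusted p = 0.0428, adjusted p = 0.588, limma). These were the 2 members of 8 with an unadjusted p under 0.05, beside 936 of 11496 genes, and 0.217% of all genes passed after adjustment. Bcl2l1 was the 1 member whose ranges did not overlap, 5.80 to 6.87 RPKM in mutants and 4.83 to 5.51 RPKM in wild type, beside 10.1% of all genes, with a difference of 0.23 (adjusted p = 0.813, limma). No member had separate ranges in HSC (5.25% of all genes) or CLP (4.12%). In the same MPP4 libraries the summed HSC markers were at 94.1 to 108 RPKM in mutants and 41.0 to 61.4 RPKM in wild type. The lymphoid-primed markers were at 895 to 1021 RPKM and 1172 to 1517 RPKM. Bbc3 and Bcl2l1 were also the members that were higher, and Bid one that was lower, in HSC than in MPP4; the part of the marker shift in their differences was not tested. The MPP4 libraries numbered 1 of both genotypes also held 168 and 153 RPKM of 4 measured megakaryocyte markers, against 8.92 to 19.7 RPKM in the other MPP4 libraries, and without both of them 0 members passed.

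**Figure D3:**
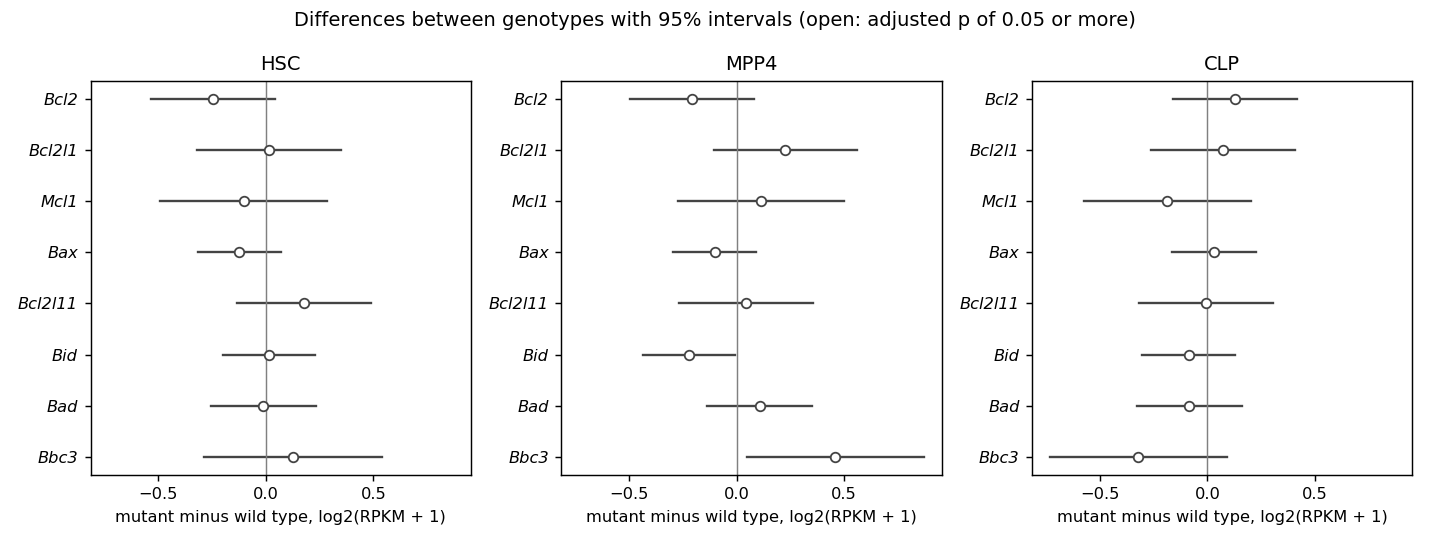
Mutant minus wild type in log2(RPKM + 1) with 95% intervals for the 8 genes in HSC, MPP4 and CLP; all points are open because no adjusted p was under 0.05. In MPP4 the intervals of Bbc3 (above 0) and Bid (below 0) leave out 0 before adjustment for the number of genes.

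Whether the genotype difference itself differed between populations was tested as an interaction, and 0 of 8 members passed in each of the 3 pairs of populations (0%, 0% and 0.00870% of all genes). The fall of Bbc3 from MPP4 to CLP was larger in mutants by 0.78 ± 0.28 on the log2 scale. This was place 98 of 11496 genes by p-value (unadjusted p = 0.0115, adjusted p = 0.998, limma) and the only member with an unadjusted p under 0.05 there.

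Ratios within a library cancel any scale that all its genes share. They were chosen with the members' values known and are given as descriptions, without a test. Bcl2 over Bcl2l1 was 1.40 to 1.54 in wild-type HSC, 4.77 to 5.35 in wild-type MPP4 and 5.59 to 6.88 in wild-type CLP, so that Bcl2 was the more abundant of the pair in every library and its lead grew along the series. The mutants had 1.03 to 1.27 in HSC and 2.77 to 3.94 in MPP4, below every wild-type library of the same population. In CLP they had 4.44 to 8.67, on both sides of the wild-type range. Neither gene passed between genotypes in HSC or MPP4, and how many other gene pairs separate likewise was not counted. Mcl1 over Bcl2 was 4.58 ± 0.944 (SD, n = 3) in wild-type HSC, 2.48 ± 0.397 in MPP4 and 1.99 ± 0.317 in CLP. In mutants it was 5.05 ± 0.442 (n = 4), 3.09 ± 0.270 and 1.72 ± 0.860, and 1 mutant CLP library, number 3, had less Mcl1 than Bcl2 (0.951). Bid over Bax was under 1 in all 7 HSC libraries (0.488 to 0.810) and above 1 in all 14 libraries of MPP4 and CLP (1.07 to 1.80). Bid over Bbc3 was 4.37 ± 1.33 (SD, n = 3) in wild-type HSC, 12.4 ± 3.50 in MPP4 and 36.8 ± 6.61 in CLP. In mutants it was 4.06 ± 1.61 (n = 4), 7.21 ± 1.93 and 50.3 ± 10.0, and the MPP4 ranges of the genotypes (5.58 to 9.99 in mutants, 9.29 to 16.2 in wild type) overlapped.

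**Figure D4:**
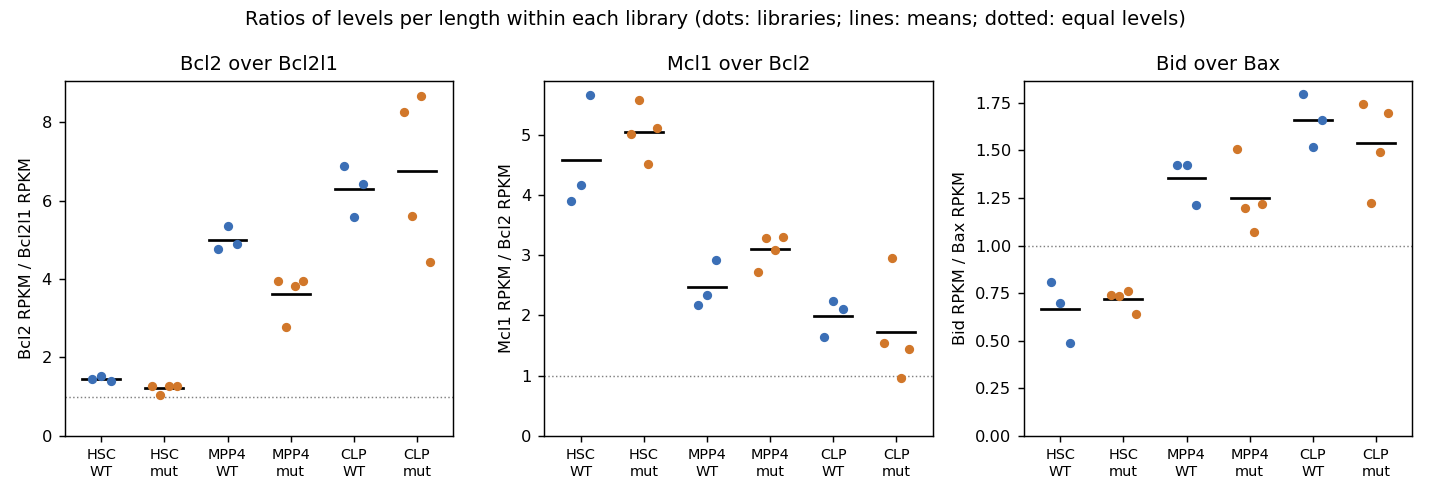
Ratios of RPKM within each library on linear axes, 1 dot per library and a line at the group mean, for Bcl2 over Bcl2l1, Mcl1 over Bcl2 and Bid over Bax. The dotted line marks equal levels, which Bid over Bax crosses between HSC (all under 1) and MPP4 (all above 1).

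Differences between populations accounted for 86.5% of the variance of Bcl2 over the 21 libraries, 83.0% for Bcl2l1, 89.3% for Bcl2l11, 92.3% for Bid and 87.5% for Bbc3, beside 52.0% for the median gene. For Mcl1, Bax and Bad the share was 14.8%, 28.4% and 17.5%, and libraries of the same group differed enough to make up 78.0%, 58.9% and 75.6%. Genotype within population took from 1.04% (Bcl2l11) to 12.7% (Bax), beside 5.11% for the median gene. Pro-survival and pro-death genes were found in both sets.

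**Figure D5:**
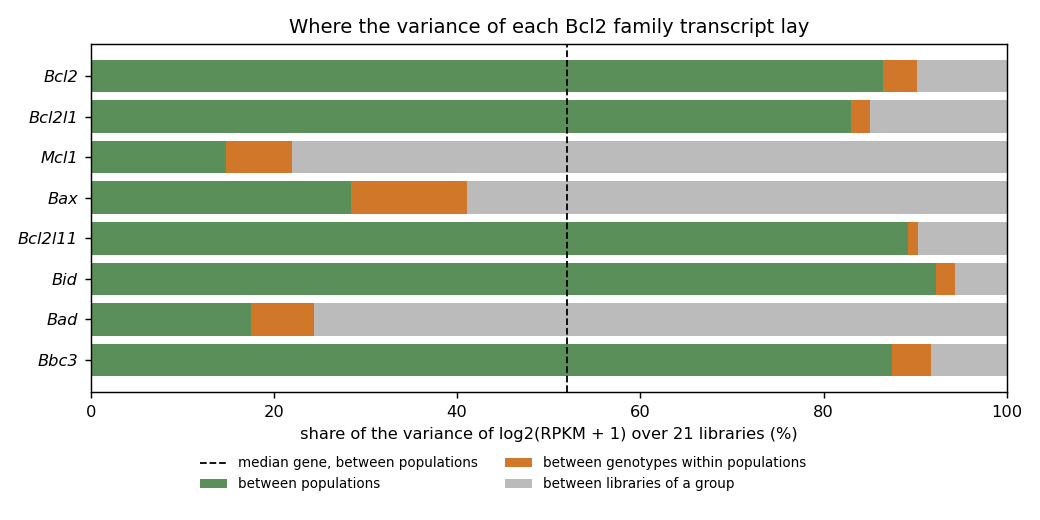
Share of the variance of log2(RPKM + 1) over 21 libraries, in percent, that lay between populations (green), between genotypes within populations (orange) and between libraries of a group (grey). Green takes over 80% in Bcl2, Bcl2l1, Bcl2l11, Bid and Bbc3 and under 30% in Mcl1, Bax and Bad; the dashed line is the median gene at 52.0%.

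Over the 21 libraries, whose 3 populations set most of the range, Bcl2 and Bid correlated at 0.93 (Pearson, log2 scale), Bid and Bcl2l11 at 0.93, and Bcl2 and Bcl2l11 at 0.85. Bid and Bcl2l1 gave -0.83 and Bcl2 and Bbc3 -0.84. Of all tested genes, those most like Bcl2 were Snx30 (0.964), Mef2c (0.962) and Sema4d (0.951), and those most like Bid were Dap (0.982), I830077J02Rik (0.975) and Rasal1 (0.974). Bcl2l11 was closest to Cbx2 (0.974), Ezh2 (0.968) and Ppp3cc (0.964), and Bcl2l1 to Tnfaip2 (0.960), Med12 (0.959) and Ajuba (0.942). Bbc3 was closest to Hlf (0.960), C77080 (0.959) and Fam171a1 (0.952). Hlf, one of the 8 HSC markers, had mean RPKM of 56.7 in wild-type HSC, 19.9 in wild-type MPP4, 39.8 in mutant MPP4 and 1.62 in wild-type CLP. These are descriptions over libraries that share their populations, and carry no p.

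The genes around the family were counted from 7 lists. Of 16 other family members 7 were measured, and in wild-type CLP against HSC 2 rose and 2 fell, among them Bcl2l14 (0.85) and the BH3-only gene Bmf (0.72), both higher, as log2 differences. Of 14 apoptosome and caspase genes 4 rose and 2 fell, with Cycs, which encodes cytochrome c, up by 0.75 and Septin4 at -1.19. Of 7 tested inhibitors of apoptosis 1 rose and 3 fell, led by Naip2 (-2.09) and followed by Naip5. In the death receptor route, which reaches the mitochondria through Bid, 1 of 10 rose and 4 fell. Its rising gene was Casp8, the protease that cleaves Bid, by 0.87 on the log2 scale (adjusted p = 5.46e-10, limma), from 48.8 ± 1.09 to 90.1 ± 1.96 RPKM (SD, n = 3 each), while the receptor Tnfrsf1a was lower by 0.92. These shares stand beside 51.1% of all genes.

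Among p53 and its targets, to which Bbc3 belongs, 6 of 15 rose and 4 fell in wild-type CLP against HSC. Beside this count and those of the next lists, 51.1% of all genes passed in that comparison (19.4% higher, 31.7% lower). The cell cycle inhibitor Cdkn1a rose by 3.76 and Btg2 by 2.58 on the log2 scale, against the direction of Bbc3. Plk2 and Sesn2 fell, as Bbc3 did, from means of 6.86 to 0.691 and 14.5 to 5.15 RPKM, and Trp53 itself differed by 0.08 (adjusted p = 0.390, limma); these 3 genes were named after their values were seen. Of 24 genes of survival cytokine signalling 3 rose and 12 fell, with Il7r up by 5.57. Il7r and Flt3 encode proteins of the kind used in the gates, so their direction is set in part by the sort. Of 12 genes listed for protein turnover, 14-3-3 binding, calcineurin and mitochondrial channels around the family 2 rose and 3 fell, among them the ubiquitin ligase gene Btrc (0.50) and Trib1 (-0.85), a pseudokinase gene known for the degradation of C/EBP-alpha. Over the 7 lists together 17 of 89 tested genes rose and 28 fell from wild-type HSC to MPP4 (39.3% of all genes passed), and 8 rose and 9 fell from MPP4 to CLP (13.1%).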

How the data were processed

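Polyadenylated RNA of sorted bone marrow cells was amplified as full-length cDNA with the SMART-seq v4 kit and made into libraries with the NexteraXT kit, per the labels' protocols; this chemistry does not mark strand, so overlapping genes cannot be told apart. Reads were aligned with STAR to mm10, per the submitters' processing notes. The values were deposited by the authors as RPKM in 1 table of 11628 genes; for the STAR version, counting tool and annotation the sources used here give nothing. No counts could be recovered from the RPKM values, so depth is unknown and no counting interval is given. Transcript values rest on bulk libraries whose separate mice are stated in the series description only as 3 wild type and 4 mutant.

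Genes were kept at 1 RPKM or more in at least 3 libraries, which left 11496 (132 removed, 0 of them members), and 16 symbols that had turned into dates were restored through their Entrez identifiers. All 6 groups entered 1 fit of log2(RPKM + 1) in limma 3.58.1 (R 4.3.3; moderated test with a trend of variance on level, 15 residual degrees of freedom), with 12 comparisons, each adjusted by Benjamini-Hochberg over all 11496 genes at 0.05. The fit was tested on simulated data with noise drawn independently for each gene and library. Such data hold none of the deviations shared between genes of a library or between same-numbered libraries, so the test does not cover them. Alternatives were pseudocounts of 0.1 and 0.5, a 5 RPKM filter and no filter, median-ratio and quantile scaling, sex and age terms, females only, the replicate number as a block, the compared groups alone, and each library left out; 2 further removals of libraries were chosen after seeing the data.

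Coordinates and promoter windows come from RefSeq (GRCm38.p6), the assembly of mm10. Named genes were the members, the 3 genes most correlated with each member that changed in wild type, and the 2 largest called differences per pathway list, of which 1 gene is not reported here. The members and lists were chosen with earlier results of these data known.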

Additional observations from a re-analysis of the deposited data

Results flagged for a closer look

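Mutant HSC replicate 1 stood apart in Bcl2, at 15.8 RPKM against 12.9 to 13.3 RPKM in the other 3 libraries of its group. The gap to its nearest neighbour was 0.879 of the group's range, above the limit of 0.829 for 4 libraries. Of 24 combinations of member and 4-library group examined this was the only one past its limit, and chance flags about 1 in 20. Its level lies inside the wild-type HSC range of 14.8 to 18.3 RPKM.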

How the results depend on the processing

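Of 2048 member values recomputed under an alternative, 2007 kept their side of the threshold, 24 lost the call, 17 gained one and 0 called values reversed. The 2007 include 81 uncalled values that changed sign. The count of members called changed by more than 1.5 times only in wild-type CLP against MPP4, from 1 to 2 with the 5 RPKM filter, quantile scaling, only the compared groups and the removal of both MPP4 libraries numbered 1 (chosen after seeing the data), and to 3 with median-ratio scaling and with sex and age terms. Each added call was Bid or Bcl2l11, higher in CLP; the cause was not tested. Leaving out 1 library at a time gave 1 to 2 there, 4 to 6 in wild-type MPP4 against HSC, 3 to 5 in mutant CLP against MPP4, 5 to 6 in mutant CLP against HSC, and 0 to 0 between genotypes. The calls of Bbc3 in wild-type MPP4 against HSC and of Bcl2l11 in mutant CLP against MPP4 accounted for all 24 lost calls. Single calls were gained by Bax without wild-type HSC 1 (wild-type MPP4 against HSC, adjusted p = 0.0424, limma) and with median-ratio scaling (mutant CLP against MPP4, adjusted p = 0.0362).

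Whether a replicate number marks 1 mouse is not stated, and mutant number 4 carries different ages in different populations. Same-numbered libraries of 1 genotype correlated at 0.094 to 0.481 in their deviations (21 pairs, 19 over 0.1), different numbers at -0.489 to 0.341, and 36 of 42 comparisons of a library with another population were highest with its own number. With the number as a fixed replicate block 2 members were called in wild-type CLP against MPP4, and with genotype and number as 1 block 3 were; the block changed no other count. Depth is unknown, so the error of low genes such as Bcl2l11 and Bbc3 rests on the spread between libraries alone.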

Other observations

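Between genotypes 0 of the 89 listed genes around the family passed in HSC, 1 in MPP4 (higher in mutants) and 0 in CLP. Beside these counts 0.0522%, 0.217% and 0% of all genes passed. As an interaction 0 of the 89 passed in any pair of populations. In the mutants the same lists gave the following counts between populations. From mutant HSC to CLP 21 of 89 listed genes rose and 30 fell, beside 57.8% of all genes. Bmf, a BH3-only gene, rose by 0.95 on the log2 scale and Bnip3, a mitophagy receptor of the wider family, was lower by 0.69. Cycs rose by 0.85 and Casp8 by 0.85. Naip5 and Naip2, inhibitors of apoptosis that sense bacterial proteins, differed by -1.84 and -1.83. Among p53 targets Cdkn1a rose by 3.99, from 1.09 ± 0.636 to 31.5 ± 5.05 RPKM (SD, n = 4 each), and the kinase gene Plk2 differed by -2.63, while Bbc3 fell by 1.92. From mutant MPP4 to CLP 13 rose and 19 fell, beside 24.3% of all genes, among them Casp6 (0.40) and the protease gene Htra2 (-0.36). From mutant HSC to MPP4 16 rose and 23 fell, beside 39.1%, with the survivin gene Birc5 up by 1.19 and Septin4 at -0.75.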
